A study of Drosophila melanogaster with 2 samples.

Results

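The core autophagy genes described here are 10 genes of Drosophila melanogaster, namely Atg1, Atg13, Atg17, Atg9, Atg18a, Atg5, Atg7, Atg8a, Atg8b and ref(2)P. They were taken from a list of names, by a rule that uses no measured value, though earlier results of these data were known. Each matched 1 FlyBase gene identifier among the 12083 genes with at least 1 read in either library. Whole heads of adult w1118 flies, a white-eyed laboratory strain, were sequenced after 6 days on a standard diet (control) or on that diet supplemented with sucralose, a sweet chlorinated sugar derivative. The flies of both groups began the diets at 4 to 7 days of age, were 10 to 14 days old as adults when sampled, and carried no transgene that the labels name. Sex, the number of heads and the dose of sucralose are not given in the labels. There was 1 library per diet, with 10.3 M unique reads for control and 10.4 M for sucralose, so no test between diets was possible and no p-value is given. A fold divides the scaled sucralose count by the scaled control count. Each comes with a 95% Clopper-Pearson interval, which reflects counting error alone. The interval treats reads as independent, and since reads amplified by PCR are not independent molecules, it may be too narrow. The study's title places the diet beside a fasting response of neurons, and starvation is a classical trigger of autophagy.

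Autophagy encloses cytoplasm in a double membrane, the autophagosome, which fuses with the lysosome so that its content is broken down and reused. The Atg1 kinase complex starts the process when nutrients are short and TORC1 kinase is inactive, Atg9 vesicles and phosphoinositide-binding proteins build the membrane, and ubiquitin-like conjugation attaches Atg8 to it. Cargo receptors such as ref(2)P link ubiquitinated material to Atg8. Much of this control acts on proteins, and a transcript level is no measure of the rate of autophagy.

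Transcripts of the core autophagy genes were present at nearly the same levels on both diets, apart from the higher level of Atg17 in the sucralose library. Together the 10 genes took 12987 control reads and 14396 sucralose reads, which is 0.126% and 0.138% of each library (1.09-fold, 1.06 to 1.11). Of 9 members with 50 or more reads in the sum of both libraries, 1 was at least 1.2-fold higher, 0 were at least 1.2-fold lower and 8 lay between. Among all 8889 genes over the same floor, 11.9% were at least 1.2-fold higher and 15.0% at least 1.2-fold lower, so that 1 of 9 is close to the share over all genes. None of the 9 reached 1.5-fold in either direction, a mark passed upwards by 1.96% and downwards by 4.12% of all genes. The median log2 difference of the members, on the scale of CPM (counts per 1000000 scaled reads) plus 0.5, was 0.01, against 0.00 for all genes over the floor.

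**Figure D1:**
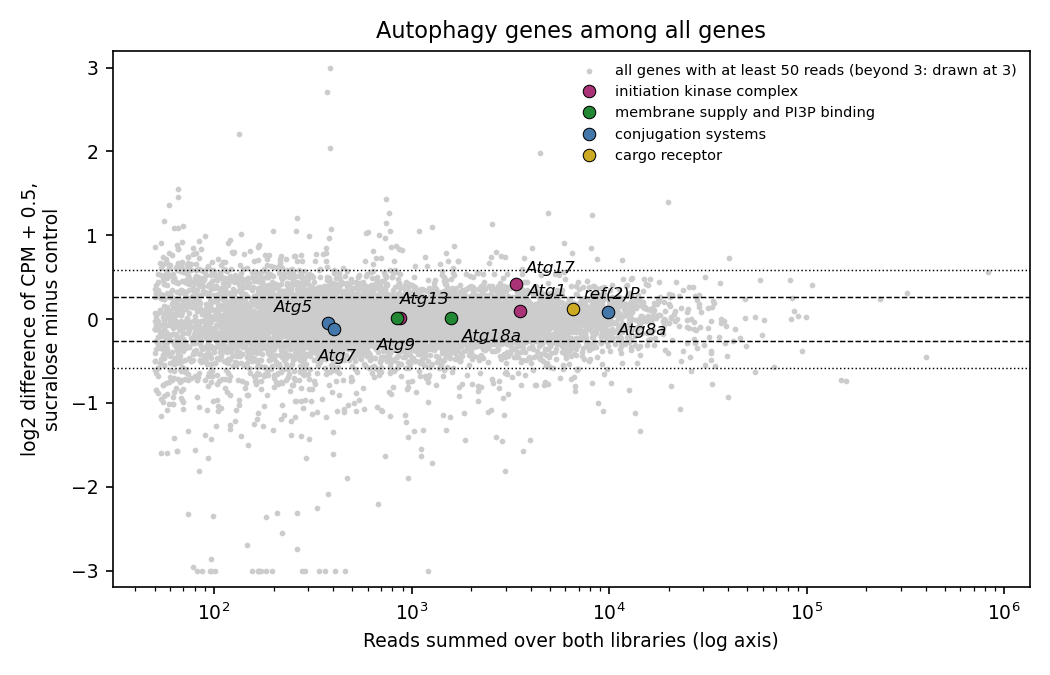
Difference between the sucralose and control libraries (log2 of CPM + 0.5, vertical axis) against the reads of each gene summed over both libraries (log axis). Grey points are the 8889 genes with at least 50 summed reads, coloured points are the 9 members over that floor, and dashed and dotted lines mark 1.2-fold and 1.5-fold. Atg17 is the only member beyond a dashed line, and the other 8 lie within the band.

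The 1 member past 1.2-fold, a count close to the share over all genes, belongs to the kinase complex that starts autophagosome formation. Atg17, the fly counterpart of mammalian FIP200 and the scaffold on which the kinase Atg1 and its partner Atg13 assemble, had 1419 control reads and 1941 sucralose reads. Its level per gene length, in the deposited unit RPKM (reads per kilobase and per 1000000 reads), was 22.0 for control and 29.6 for sucralose. The sucralose library was the higher one, by 1.34-fold (1.25 to 1.44), and the whole interval lay above 1.2-fold. Of all 8889 genes over the floor, 436 (4.90%) had a log2 difference as high as its 0.42 or higher. By level it moved from rank 3612 of 11521 listed genes in the control to rank 2722 of 11588 in the sucralose library.

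The other members of that complex differed little. Atg1, the serine/threonine kinase, had 1685 and 1840 reads in the control and sucralose libraries, and its RPKM was 40.1 and 43.2. It was slightly higher in the sucralose library (1.07-fold, 1.002 to 1.15). Atg13, the regulatory subunit through which TORC1 acts on the kinase, had 430 and 441 reads and an RPKM of 13.9 and 14.0. Its fold was 1.01 (0.879 to 1.15), an interval that holds no difference. The 3 genes summed to 3534 and 4222 reads (1.17-fold, 1.12 to 1.23), and without Atg17 to 2115 and 2281 (1.06-fold, 0.997 to 1.12).

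Because scaling cancels in ratios within a library, Atg17 was also set against its partners there. There were 0.842 control and 1.05 sucralose reads of Atg17 for each read of Atg1, a ratio of ratios of 1.25 (exact conditional 95% interval 1.14 to 1.38). Against Atg13 the ratio was 3.30 and 4.40, a change of 1.33 (1.15 to 1.55). The ratio of Atg1 to Atg13 was 3.92 and 4.17, with an interval of the change that holds no difference (0.915 to 1.24). Atg17 thus differed from both partners by more than counting error, in a comparison of 2 libraries that says nothing of the spread between flies. These ratios use the same counts as the folds above, and Atg17 was the member with the largest fold, so they are no separate support. No exon base of Atg17 overlaps another annotated gene in BDGP6.54, and reads covered 99.6% (control) and 99.2% (sucralose) of its gene model.

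Membrane supply was represented by genes whose levels were nearly equal on both diets. Atg9, the only membrane-spanning protein of the core set, which travels on vesicles to the growing membrane, had 418 control and 429 sucralose reads, at an RPKM of 14.4 and 14.5. Its fold was 1.01 (0.878 to 1.15). Atg18a, which binds the lipid phosphatidylinositol 3-phosphate on the forming membrane, had 786 and 806 reads, at an RPKM of 32.1 and 32.4, with a fold of 1.01 (0.911 to 1.11). For both genes the interval lay wholly inside 1.2-fold either way.

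The conjugation genes spanned the widest range of levels. Atg8a, the ubiquitin-like protein that is joined to phosphatidylethanolamine and stays on the autophagosome, had 4725 control reads and 5088 sucralose reads. Its RPKM was 379.9 for control and 402.9 for sucralose, above 98.3% and 98.4% of the genes listed in each. The sucralose library was 1.06-fold higher (1.02 to 1.10). Atg5, which is joined to Atg12 and helps place Atg8 on the membrane, had 189 and 187 reads and an RPKM of 13.0 and 12.7 (fold 0.971, 0.789 to 1.19). Atg7, the E1-like enzyme that activates both Atg8 and Atg12, had 210 and 196 reads and an RPKM of 8.52 and 7.83 (fold 0.916, 0.750 to 1.12). These last 2 genes are the least deeply sequenced of the 9, and their intervals reach below 0.833, the lower edge of the 1.2-fold band, so that a difference of 1.2-fold lower lies within their counting error.

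Atg8b, a second Atg8 gene known in the fly for expression in the male germline, was close to absent from heads. It had 1 control read and 0 sucralose reads, and a count of 0 allows up to 3 reads, or an RPKM of 0.463. Per length, Atg8a was 2423-fold above Atg8b in the control (434.7 to 95722, the width reflecting the single read) and at least 869.7-fold above it in the sucralose library, against the limit of 3 counts there. No fold between diets is given, since both libraries were under that limit. The matched marker genes of the testis were also at low levels. The 6 of 12 listed markers that matched a deposited identifier summed to 30 control and 39 sucralose reads. Of these, 19 and 27 were from betaTub85D, a testis tubulin gene (RPKM 1.0 and 1.41). The other 6 names were not matched, which does not show that those genes had no reads. The unique reads counted per gene could be lost where Atg8 copies are alike, and no sequence was compared here.

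The cargo receptor ref(2)P, the fly counterpart of p62, binds ubiquitinated proteins and Atg8a and is itself consumed by autophagy. It had 3124 control reads and 3468 sucralose reads, and its RPKM was 125.9 and 137.6. The sucralose library was 1.09-fold higher (1.04 to 1.14), a difference larger than counting error and inside 1.2-fold. For each read of Atg8a there were 0.661 control and 0.682 sucralose reads of ref(2)P, and the interval of that change (0.968 to 1.10) holds no difference. A gene on the opposite strand, CG10337, shares 7.22% of the exon bases of ref(2)P, and whether reads were assigned by strand is not given in the sources used here.

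**Figure D2:**
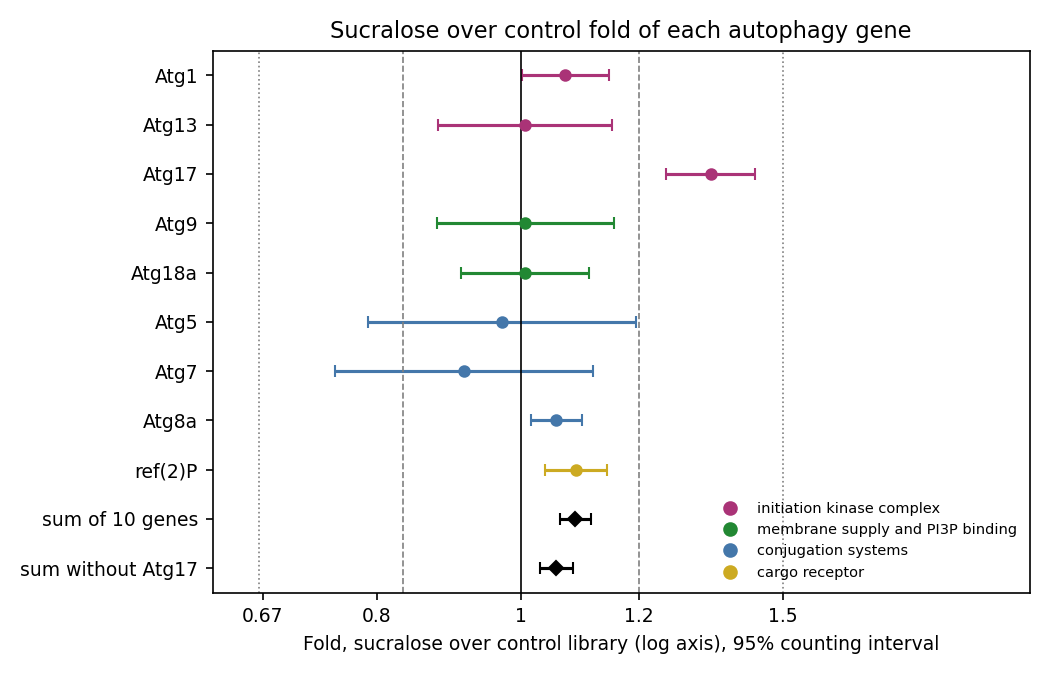
Fold of the sucralose over the control library (log axis) for the 9 members over the read floor and for summed reads, with 95% intervals that cover counting error only. Colours mark the roles, diamonds the sums, and dashed and dotted lines 1.2-fold and 1.5-fold. The interval of Atg17 (1.25 to 1.44) lies to the right of the dashed line at 1.2, and those of Atg5 and Atg7 are the widest.

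Of the 9 folds, 6 had an interval wholly inside 1.2-fold either way (Atg1, Atg13, Atg9, Atg18a, Atg8a and ref(2)P), 1 lay wholly above it (Atg17), and 2 crossed its lower edge (Atg5 and Atg7). The intervals of Atg1, Atg8a, ref(2)P and Atg17 lay above 1, and the other 5 held it. Except for Atg17, each member over the floor lay between the lower and the upper quartile of all genes over the floor, at log2 differences of -0.16 and 0.14. The summed reads without Atg17 gave a fold of 1.06 (1.03 to 1.08).

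Levels per length followed the same order in both libraries. Atg8a stood first, 3.02 times ref(2)P on the control diet and 2.93 times on sucralose, followed by ref(2)P, Atg1, Atg18a and Atg17. Next came Atg9, Atg13 and Atg5, between 13.0 and 14.4 RPKM for control and between 12.7 and 14.5 for sucralose, and each of these neighbours overlapped the next in its exact Poisson interval. Atg7 lay below them and Atg8b last. Atg18a and Atg17 were apart in the control (32.1 and 22.0 RPKM), whereas in the sucralose library their intervals overlapped (30.2 to 34.8 and 28.3 to 31.0). Among the reads of all 10 genes, Atg8a took 36.4% (control) and 35.3% (sucralose), ref(2)P 24.1% in both, and Atg17 10.9% (10.4 to 11.5) and 13.5% (12.9 to 14.1). The shares of Atg17 are apart, and those of the other 9 overlap between libraries within their 95% Clopper-Pearson intervals.

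**Figure D3:**
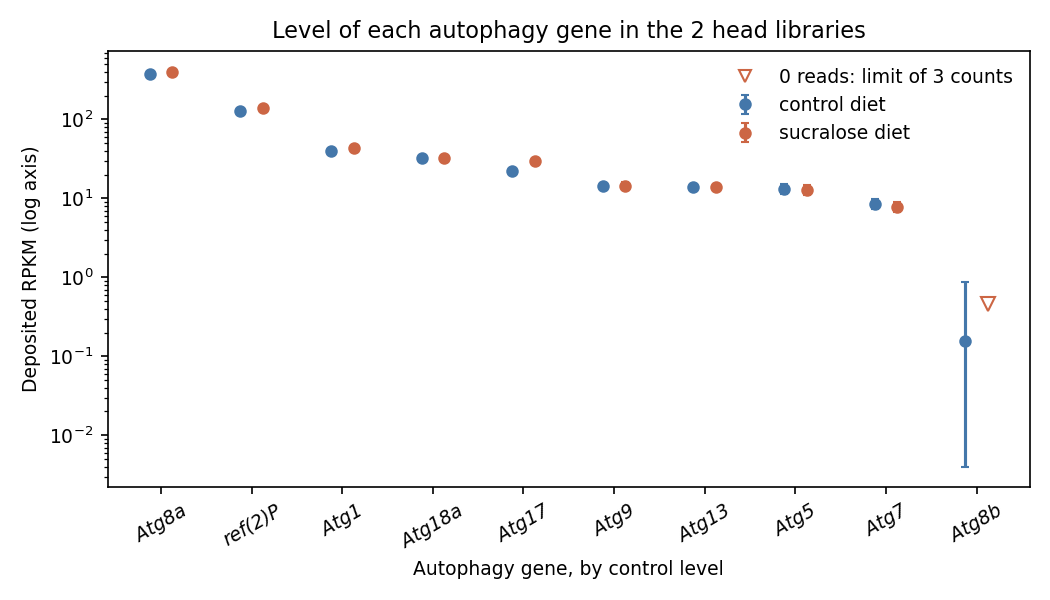
Deposited level per gene length (RPKM, log axis) of the 10 genes in the control (blue) and sucralose (orange) libraries, with exact Poisson 95% intervals of the counts, many smaller than the point. The open triangle is the limit of 3 counts for Atg8b, which had 0 reads in the sucralose library. The levels run from 379.9 RPKM for Atg8a to 0.157 for Atg8b in the control, and the only visible gap between diets among the expressed genes is that of Atg17.

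Other genes that build the autophagosome were at similar levels on both diets. All 15 listed names were in the files and over the floor, 1 was at least 1.2-fold higher, 0 were as much lower and 14 lay between, against 11.9% and 15.0% of all genes past these marks, with a median log2 difference of 0.02. The most abundant in RPKM, Vmp1, an endoplasmic reticulum protein needed for the forming membrane, had 1002 and 1003 reads (fold 0.982, 0.899 to 1.07). Vps34, the kinase that makes phosphatidylinositol 3-phosphate, had 551 and 656 reads (1.17-fold, 1.04 to 1.31), and Atg2, a lipid-transfer protein that works with Atg9 and Atg18, had 1111 and 1252 (1.11-fold, 1.02 to 1.2). The gene past 1.2-fold was Atg10, the E2-like enzyme of Atg12, with 62 and 79 reads and an interval that holds no difference (1.25-fold, 0.885 to 1.77). Dgk on the opposite strand shares 50.1% of its exon bases. Atg4a, a protease that trims Atg8, was 1.14-fold higher (1.01 to 1.28) on 528 and 614 reads, with 51.4% of its exon bases shared with CG4629 on the opposite strand.

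Genes that act in fusion of the autophagosome with the lysosome were mostly unshifted. Of 12 names, 10 matched a deposited identifier, and the rest could be present under an older one. Of the 10, 0 were at least 1.2-fold higher, 1 was as much lower and 9 lay between (median log2 difference -0.04). Among all genes, 11.9% were as much higher and 15.0% as much lower. Rab7, the small GTPase of late endosomes and the most abundant of them in RPKM, had 2968 and 3108 reads (1.03-fold, 0.977 to 1.08). Vps11, a subunit of the HOPS tether, was the lower one, with 428 and 319 reads (fold 0.731, 0.631 to 0.847), and an antisense RNA gene shares 27.7% of its exon bases. Of the other matched genes of this tether, only Vps39 had a fold above 1, on 208 and 251 reads (fold 1.18, 0.981 to 1.43). Vps33A, with 438 and 414 reads (0.927, 0.809 to 1.06), Vps18 (0.947, 0.813 to 1.10) and Vps41 (0.959, 0.877 to 1.05) were below 1. All of these intervals hold 1. The fusion SNARE gene Snap29 had 302 and 263 reads (0.854, 0.721 to 1.01).

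The selective autophagy list, which also holds Keap1 and cnc as genes of the ref(2)P interaction axis, had several genes past 1.2-fold. Of 7 names, 6 matched a deposited identifier. Of these, 3 were at least 1.2-fold higher and 1 as much lower, with a median log2 difference of 0.25. Bnip3, the fly counterpart of a mammalian mitochondrial autophagy receptor, had 1834 and 2693 reads (1.44-fold, 1.36 to 1.53) and was the most abundant of the list in RPKM. The transcription factor gene cnc, counterpart of Nrf2, had 2504 and 3226 reads (1.26-fold, 1.2 to 1.33), and Keap1, whose product holds the Cnc protein in check, had 271 and 355 (1.29-fold, 1.09 to 1.51). In the fly, Cnc activates transcription of ref(2)P, whose own fold was 1.09, and a link between these folds was not tested. The ubiquitin ligase gene park, which marks damaged mitochondria, had 178 and 137 reads (fold 0.755, 0.600 to 0.949), but an antisense RNA gene shares 65.1% of its exon bases. The list is short and includes Keap1 and cnc, so its median is not that of selective autophagy genes alone. Its difference from the core set was not tested, and 11.9% and 15.0% of all genes passed the same marks.

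Lysosome genes showed no common direction. All 14 were in the files, with 1 at least 1.2-fold higher, 2 lower (both beyond 1.5-fold) and 11 between, at a median log2 difference of 0.03 and a mean of -0.07. The shares over all genes were 11.9% higher, 15.0% lower and 4.12% at least 1.5-fold lower, and 2 of 14 is near the 15.0%. Those beyond the mark were Cln3, a lysosomal membrane protein gene whose human counterpart is mutated in juvenile Batten disease, with 228 and 105 reads (fold 0.452, 0.355 to 0.572), and Hexo2, a hexosaminidase, with 744 and 476 (0.628, 0.558 to 0.705). On the other side was spin, a lysosomal efflux protein needed for lysosome reformation, with 1583 and 2197 reads (1.36-fold, 1.28 to 1.45). The aspartic protease gene cathD, the most abundant of the list in RPKM, had 4727 and 5737 reads (1.19-fold, 1.15 to 1.24). Mean and median differ in sign because Cln3 and Hexo2 are far below the rest.

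No matched upstream regulator of autophagy differed by 1.2-fold, where 11.9% of all genes were as much higher and 15.0% as much lower. The list is short, and its difference from all genes was not tested. Of 8 names, 7 matched a deposited identifier and 6 of these lay above 0, as did 4408 of all 8889 genes, with a median log2 difference of 0.13. AMPKalpha, the energy-sensing kinase that activates Atg1, had 2030 and 2122 reads (1.03-fold, 0.965 to 1.09), and the TORC1 adaptor gene raptor 646 and 776 (1.18-fold, 1.06 to 1.31; 26.9% of exon bases shared with Mipp2). The transcription factor gene foxo had 1018 and 1192 reads (1.15-fold, 1.06 to 1.25), Tsc1, an inhibitor of TORC1, 608 and 700 (1.13-fold, 1.01 to 1.26), and Mitf, counterpart of the lysosomal regulator TFEB, 976 and 1090 (1.10-fold, 1.004 to 1.2). The intervals of AMPKalpha, of Tor, the TORC1 kinase gene (fold 1.02), and of gig, the partner gene of Tsc1 (0.990), hold 1, and those of the other 4 lie above it. Those of raptor, foxo and Tsc1 reach past 1.2-fold, so that a difference of this size lies within their counting error.

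**Figure D4:**
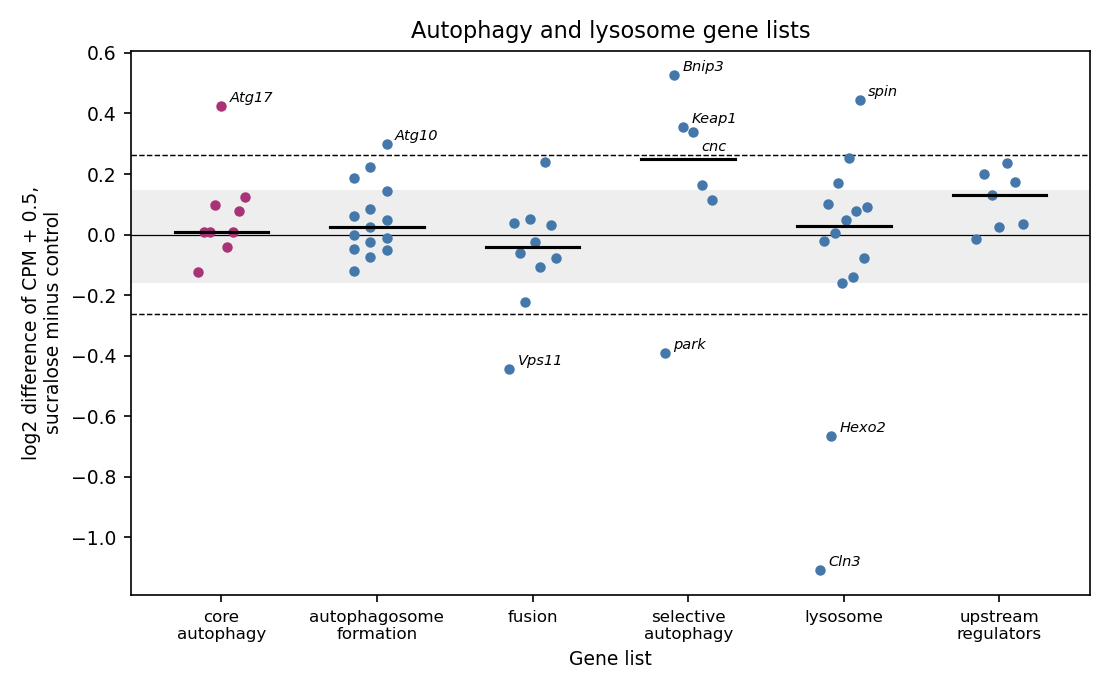
Difference between the libraries (log2 of CPM + 0.5, sucralose minus control) of each gene over the read floor in the core set and 5 related lists. Points are genes, short black lines are list medians, the grey band spans the quartiles of all genes and dashed lines mark 1.2-fold. Genes beyond 1.2-fold are named, from Bnip3 at the top to Cln3 at the bottom.

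Marker transcripts of several cell types differed between the libraries, and in whole heads fewer cells of a type and less RNA per cell cannot be told apart. Photoreceptor markers were above 0 in 6 of 6 (summed level 5.49% and 7.58% of control and sucralose reads). Of these, 4 were at least 1.2-fold higher, and the interval of trp holds 1 (fold 1.0029, 0.989 to 1.017). Glial markers were below 0 in 6 of 6 (0.257% and 0.163%), but the shift was not uniform. While alrm, Gat, Eaat1 and Gs2 were at least 1.5-fold lower, the intervals of repo (fold 0.956, 0.854 to 1.07) and moody (0.912, 0.831 to 1.0003) hold 1. Of 7 listed muscle markers, 6 were matched, and all 6 were below 0 (0.395% and 0.285%), 5 of them at least 1.2-fold lower. Of all 8889 genes over the floor, 4408 were above 0 and 4481 below, and 4.12% were at least 1.5-fold lower. All 7 gut markers over the floor were below 0 (0.0305% and 0.00161%), among them Jon99Cii at 0 in the sucralose library. The 5 matched of 6 listed fat body markers summed to 0.482% and 0.487%, nearly all of it from apolpp (48766 and 50501 reads). However, 3 of the 4 over the floor, Lsp2, fit and Lsp1beta, were at least 1.5-fold lower. The 5 matched of 6 listed neuronal markers summed to 0.438% and 0.434%, with 4 of 5 slightly below 0 and none beyond 1.2-fold. Among all genes, 11.9% were as much higher and 15.0% as much lower. Neuronal and photoreceptor markers were abundant in both libraries, as the head label implies. The autophagy genes are expressed in most cell types, and the part of these marker differences in the difference of Atg17 was not tested.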

How the data were processed

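RNA from heads was extracted with Trizol and sequenced from standard Illumina libraries, per the labels' protocols. The authors deposited 1 table per library. Its count column holds unique reads per gene, as raw counts whose sum equals the total in the file header. The deposited RPKM are those counts per kilobase of the deposited gene length and per 1000000 reads (recomputed values differed by at most 4.7e-08 of the value). The deposited coverage is the percent of a gene model's bases with reads. Aligner, build, annotation release and strandedness are not given by the labels or headers, so BDGP6.54 served only for names and shared exon bases. There, 3 of the 10 members have a transcript of the deposited length.

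Counts were scaled by the trimmed mean of M-values (TMM, edgeR 4.0.16, R 4.3.3; factors 0.998 and 1.00). Differences are log2 of CPM plus 0.5, for genes with at least 50 summed reads. Folds, Poisson and binomial intervals were computed in Python 3.11.15 (SciPy 1.17.1, pandas 2.3.3, numpy 2.4.6). Only the folds and their intervals were checked, on simulated Poisson counts. Such counts have the error that the intervals assume, so the check covers the computation and not the spread of real libraries. For a count of 0 the limit is 3 reads. The members, the gene lists and the fold marks were chosen with earlier results of these data known. Named were all 10 members and, from each of 5 other lists, the most abundant gene and the 4 with the largest difference. Of 56 names on those lists, 52 matched a deposited identifier. Older identifiers could not be mapped to current ones, so an unmatched name does not show that the gene had no reads. Alternatives were other scalings, pseudocounts of 0.1 and 5 CPM, floors of 0 and 200 reads, leaving out genes that share at least 20% of exon bases, the deposited RPKM ratio and sums without Atg8a. Scaling without the 20 most abundant genes and leaving out Atg17 were added after seeing the data.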

Additional observations from a re-analysis of the deposited data

How the results depend on the processing

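Of 46 repeats of the member sums, medians and counts under other settings, 44 kept their direction and size, and both exceptions leave out Atg17, an alternative chosen after seeing the data: the summed fold was then 1.06 (1.0563) in place of 1.09, and the count of members at least 1.2-fold higher was 0 in place of 1. The floor of 200 reads and leaving out genes that share exon bases keep the same 9 members, so those repeats could not differ. The fewest summed reads among them are 376 (Atg5), and the largest exon share is 7.22% (ref(2)P). Under other scalings, and as a ratio of deposited RPKM, the fold of Atg17 ran from 1.34 to 1.36, and the median log2 difference of the members over all settings from 0.01 to 0.03. Ranking the members by read count in place of RPKM left 4 of 10 positions as they were in the control and 3 of 10 in the sucralose library, with Atg8a first in both. The median of the selective autophagy list was 0.34 in place of 0.25 without genes that share exon bases, which drops park. Of all genes, 7.81% were at least 1.2-fold higher with a pseudocount of 5 CPM, 14.9% with no floor and 9.56% with a floor of 200 reads, and Atg17 alone of the members passed the mark under each of these. The deposited files hold 1 library per diet, so leaving out a replicate or pairing samples was not possible, and the depth limits Atg5, Atg7 and Atg8b most.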

Other observations

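The share of the gene model that had reads differed among the autophagy genes. For the 9 expressed members, reads reached between 91.8% (Atg18a) and 99.6% (Atg17) of the deposited model in the control library. The 1 read of Atg8b covered 7.89% of its 621 bases. Atg10, outside the core set, was covered over only 20.03% of a model of 3474 bases in the control library, so that its level per length of 1.74 RPKM is set by a model most of which had no reads. In BDGP6.54 the merged exons of Atg10 hold 1516 bases. The neighbouring enzymes of the same pathway, Atg3 and Atg7, were covered over 98.3% and 95.8%.

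Among the related lists, Cln3 had the largest difference downwards and Bnip3 the largest upwards. No exon base of either overlaps another annotated gene in BDGP6.54. Cln3 had an RPKM of 14.0 for control and 6.34 for sucralose, and reads covered 95.4% of its model in the control. The RPKM of Bnip3 was 93.7 and 135.6, which moved it from rank 824 to rank 528 among the listed genes. Both were singled out after their values were seen, and 1 library per diet gives no measure of the spread between flies.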
